A study of Homo sapiens with 6 samples.

Results

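Compared here are MM.1S myeloma cells transduced with the second of 2 hairpins directed at IRF3 (labelled shRNA2 IRF3, 2 libraries) and MM.1S cells transduced with a scrambled hairpin (labelled scramble control, 2 libraries). MM.1S is an established human multiple myeloma line, a tumour of antibody-secreting plasma cells. It was grown in RPMI 1640 medium with fetal bovine serum, every group received a hairpin from a lentivirus, and no time after transduction is given in the sources used here. Poly(A)-selected RNA was sequenced, and the deposited data are a table of DESeq2 results for each hairpin against scramble, with no value of a single library. A gene entered the description if its mean normalised count over all 6 libraries, those of the first hairpin (labelled shRNA1 IRF3, 2 libraries) included, was 50 or more. That left 12977 of 33095 genes, which held 99.4% of the summed mean counts, and all 12977 had an adjusted p. The other 20118 genes are not described.

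Nothing in the labels says that the 2 libraries of a group came from separate transductions. A p-value here therefore covers the spread among the sequenced libraries alone, and that spread may be technical. Gene dispersions solved from the results of both hairpins were nearly equal. The spread used thus appears to be shared over all 6 libraries, those of the first hairpin included. At the edge of the rule, CNTNAP2 and CYB5R2 lay just outside with means of 49.94 and 49.95 and, in the authors' deposited table, a log2 fold change ± SE of -0.93 ± 0.50 and -0.58 ± 0.48. Just inside lay ENSG00000244701 and ENSG00000267165, with means of 50.02 and 50.02 and values of 0.21 ± 0.47 and 0.23 ± 0.50 there.

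IRF3 is a transcription factor that waits in the cytoplasm until sensors of foreign or misplaced nucleic acid, such as cGAS with STING or RIG-I with MAVS, lead the kinase TBK1 to phosphorylate it. It then enters the nucleus and switches on interferon genes and some interferon-stimulated genes directly. Plasma cells are known for another member of the same family, IRF4, which together with PRDM1 and XBP1 sets up the secretory program, and myeloma cells depend on it. Proliferating cells couple DNA synthesis to E2F factors, which are held by the RB family until cyclin-dependent kinases release them, and couple mitosis to the MYBL2, FOXM1 and DREAM complexes, which read the CHR promoter element.

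Marker genes matched the labelled cell type. Of 10 plasma cell markers, 9 had a mean of 50 or more, JCHAIN (the joining chain of secreted antibodies) reaching 31453, and CD27 lay below at 22.4. None of the 4 B cell, 4 fibroblast or 4 epithelial markers reached a mean of 50. Among the T cell and myeloid markers only CD3E (57.1) and ITGAM (88.7) did. The summed level of the plasma cell markers was 143291 in scramble and 94564 in the libraries labelled shRNA 2, that of the myeloid markers 41.9 and 112, and CD14, CSF1R and LYZ, which define myeloid cells, had means of 6.07, 5.10 and 14. Here and below, a group level is the mean normalised count solved from the shared overall mean and both deposited fold changes, a ratio is the shRNA 2 level over the scramble level, and its 95% interval comes from the deposited standard error, with no adjustment for the number of genes. Ratios that follow "to" or "at" are relative to a scramble level of 1 and have that interval in brackets, and "fell" or "rose" is written only where the adjusted p was below 0.05.

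The targeted gene was not shown to be lower. IRF3 (ENSG00000126456; chromosome 19, 49659569 to 49665875, minus strand, GRCh38) was at 2809 and 2476 normalised counts, with a ratio of 0.881 (95% interval 0.768 to 1.01), and its log2 fold change of -0.18 ± 0.10 (SE) did not pass in the authors' deposited table (adjusted p = 0.181). With the first hairpin, IRF3 was at 974, and the authors' deposited table for it gives -1.53 ± 0.10 with an adjusted p of 8.45e-46. The 2 hairpins differed by 1.35 ± 0.15 (SE), a difference with an adjusted p of 2.62e-18 by a z test over 12977 genes. BCL2L12, which overlaps IRF3 on the opposite strand, was at 575 and 455 normalised counts, with a ratio of 0.791 (95% interval 0.625 to 1.00), and it did not pass either (adjusted p = 0.136 in the authors' deposited table). The deposited values therefore do not show that IRF3 RNA was reduced in the libraries labelled shRNA 2, and every direction given below is a difference between libraries that carry that label and scramble. IRF3 protein was not measured.

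In the authors' deposited table, 4725 of the 12977 genes passed an adjusted p of 0.05, which is 36.4%, and 8252 did not. Of the genes that passed, 1730 (13.3%) were higher and 2995 (23.1%) were lower in the libraries labelled shRNA 2, and 5874 genes had an unadjusted p below 0.05. A log2 fold change of at least 1 with that adjusted p was reached by 311 higher genes (2.40%) and 842 lower genes (6.49%), and one of at least 2 by 39 and 121. Changes were mostly modest: the median log2 fold change was 0.56 among the called higher genes and -0.65 among the called lower genes, against -0.04 over all 12977. These are bulk libraries, so fewer cells of a kind and less RNA per cell cannot be told apart. The counts of every gene list below are to be set against the 13.3% higher and 23.1% lower over all genes.

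**Figure D1:**
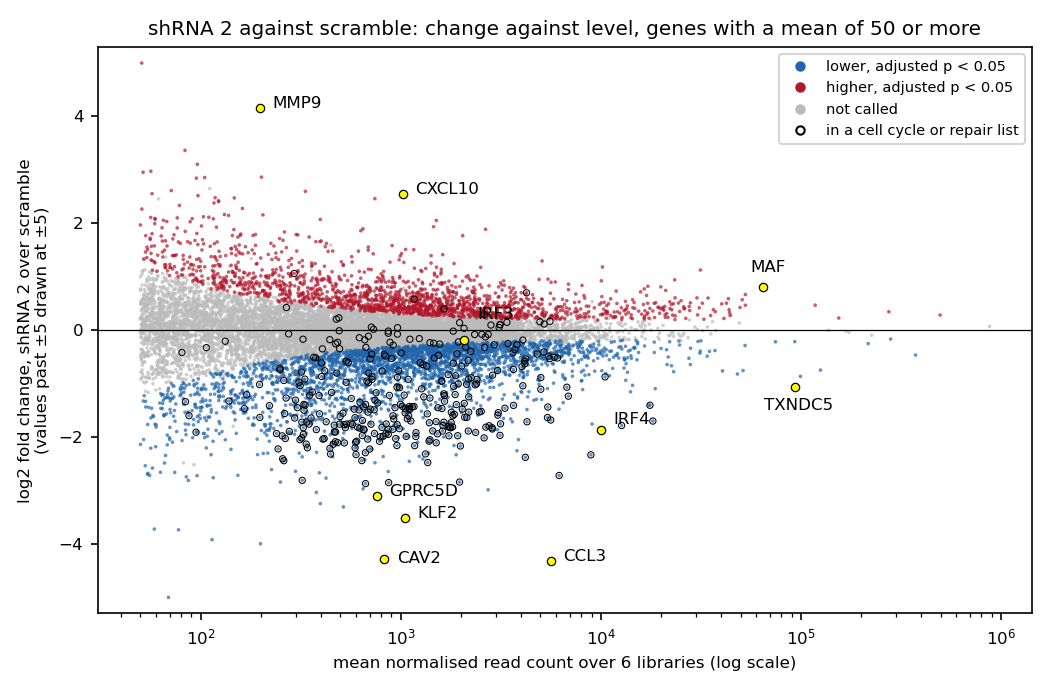
Each point is 1 of 12977 genes, with its mean normalised count over 6 libraries on a log axis and its log2 fold change, shRNA 2 over scramble, on the vertical axis. Blue marks the 2995 lower and red the 1730 higher genes at an adjusted p below 0.05, and black rings the 326 genes of the cell cycle, replication and repair lists, most of which lie between -1 and -2.5.

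Leaving out pseudogenes and genes with no symbol, the 16 lowest ratios among called genes ran from CCL3 at 0.0502 to E2F2 at 0.139. CCL3 (ENSG00000277632; chromosome 17, 36088256 to 36090169, minus strand, GRCh38), a chemokine that myeloma cells secrete and that acts on osteoclast precursors, fell from 11077 to 556 normalised counts, a ratio of 0.0502 (95% interval 0.0427 to 0.0589). CAV2, the caveolin partner that lines membrane invaginations, fell from 1396 to 72.1 normalised counts, a ratio of 0.0517 (95% interval 0.0401 to 0.0667). KLF2, a zinc-finger transcription factor that is known to be active in myeloma cells, fell from 1009.9 to 88.3 normalised counts, a ratio of 0.0875 (95% interval 0.0680 to 0.113). CCL3L1, a near-identical copy of CCL3 whose reads may be split with it by the counting, fell from 5996 to 756 normalised counts, a ratio of 0.126 (95% interval 0.109 to 0.146).

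The other genes among the 16 lowest were of mixed function. FADS1, the desaturase that makes polyunsaturated fatty acids, went from 1049 to 106 normalised counts, a ratio of 0.101 (95% interval 0.0764 to 0.134). GPRC5D, an orphan receptor that is a target of myeloma immunotherapy, went from 1260.4 to 146 normalised counts, a ratio of 0.116 (95% interval 0.0926 to 0.145). RND3, an atypical small GTPase that acts on the actin cytoskeleton, went from 341 to 41.5 normalised counts, a ratio of 0.122 (95% interval 0.0877 to 0.170). ETV5, an ETS factor that is switched on by ERK signalling, had the widest interval of these 4, with a ratio of 0.0627 (0.0214 to 0.183). MAL2, a transcytosis protein, and ST8SIA2, which builds polysialic acid on the adhesion molecule NCAM1, had ratios of 0.105 (0.0780 to 0.143) and 0.139 (0.0944 to 0.206). The remaining names among the 16 lowest were SMCO4 at 0.0661 (0.0377 to 0.116), the noncoding LOC102724219 at 0.0758 (0.0304 to 0.189), ZNF367 at 0.128 (0.101 to 0.162), and the cell cycle genes CDC6, CHAF1B and E2F2, which are described with their groups.

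The largest rises were in genes with low scramble levels, but the entry rule in part forces this. It uses the mean over all libraries, those of both hairpins included. Here and below, a gene whose scramble level lay under the required mean could enter only if hairpin libraries were higher. MMP9 (ENSG00000100985; chromosome 20, 46008908 to 46016561, plus strand, GRCh38), a secreted protease that cleaves basement membrane collagen, rose from 28.0 to 501 normalised counts, a ratio of 17.9 (95% interval 5.22 to 61.3). CXCL10, a chemokine that draws T cells and is a classical target of interferon and IRF signalling, rose from 387 to 2274 normalised counts, a ratio of 5.87 (95% interval 3.34 to 10.3). CXCL13, which attracts B cells to follicles, rose from 31.1 to 223 normalised counts, a ratio of 7.19 (95% interval 4.26 to 12.1). NLRP3, the inflammasome sensor, rose from 19.9 to 117 normalised counts, a ratio of 5.87 (95% interval 3.06 to 11.3). The scramble levels of these 4 ran from 19.9 to 387, and the interval of MMP9 is the widest of them.

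Other genes among the 16 highest were of mixed function. KRT15, a keratin, rose from 262 to 1443 normalised counts, a ratio of 5.51 (95% interval 4.17 to 7.27) and had the narrowest interval of the 16. LIMD2, a small LIM-domain protein, rose from 117 to 709, although MAP3K3 overlaps it on the opposite strand and strand use in counting is not given. RASAL1, which switches off RAS, rose from 58.8 to 428. FCGBP, RUNDC3A, GPR35, TENM4, TGM5, SPOCK2, MUC20 and the antisense RNA AATBC had ratios between 5.56 (MUC20) and 10.3 (FCGBP). RSC1A1 had the highest deposited log2 fold change of all, 8.97 ± 1.56 in the authors' deposited table, but its reconstructed scramble level was 0.188, it lies inside DDI2 on the same strand (DDI2 itself at 0.01 ± 0.11 there), and no fold is given for it.

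Among the genes with the largest mean normalised counts (which are not per length), the falls included cytoskeletal and secretory genes. TXNDC5, a disulfide isomerase of the endoplasmic reticulum, fell from 141581 to 67914 normalised counts, a ratio of 0.480 (95% interval 0.427 to 0.539). ACTB and ACTG1, the cytoplasmic actins, had ratios of 0.592 (0.531 to 0.661) and 0.589 (0.523 to 0.665). IGLL5, which shares sequence with the immunoglobulin lambda constant gene IGLC1, was at 0.566 (0.511 to 0.628). HNRNPA2B1, PTMA, ZBTB38 and CLPTM1L stood at 0.584 (0.529 to 0.645), 0.631 (0.562 to 0.708), 0.640 (0.573 to 0.715) and 0.695 (0.632 to 0.764). On the higher side MAF, the transcription factor that is translocated to the immunoglobulin heavy chain locus in some myelomas, rose from 50798 to 89069 normalised counts, a ratio of 1.75 (95% interval 1.57 to 1.96). The noncoding RNA MIAT rose from 18466 to 40316 normalised counts, a ratio of 2.18 (95% interval 1.66 to 2.87). OGT, which attaches N-acetylglucosamine to nuclear and cytoplasmic proteins, rose from 16382 to 27447 normalised counts, a ratio of 1.68 (95% interval 1.49 to 1.89). SYNGR2, PLEC, LENG8, GOLGA8A and CSTB had ratios between 1.42 (PLEC) and 1.77 (LENG8), and GOLGA8A may share reads with a near-identical paralog.

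Genes of DNA replication, the cell cycle and recombination repair mostly fell. The 14 lists of this kind hold 326 genes, of which 271 fell, 5 rose and 50 did not pass, with a median log2 fold change of -1.39 in the authors' deposited table. Over all 12977 genes 23.1% were lower and the median was -0.04, and over the 12651 genes outside these lists 2724 were lower, 1725 higher and the median was -0.03. They made up 204 of the 842 genes that fell by a log2 fold change of 1 or more (24.2%), so 638 such genes lay outside them. The 5 that rose were POLD4, DNMT3A, CDK6, CDKN1C and ANAPC2.

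**Figure D2:**
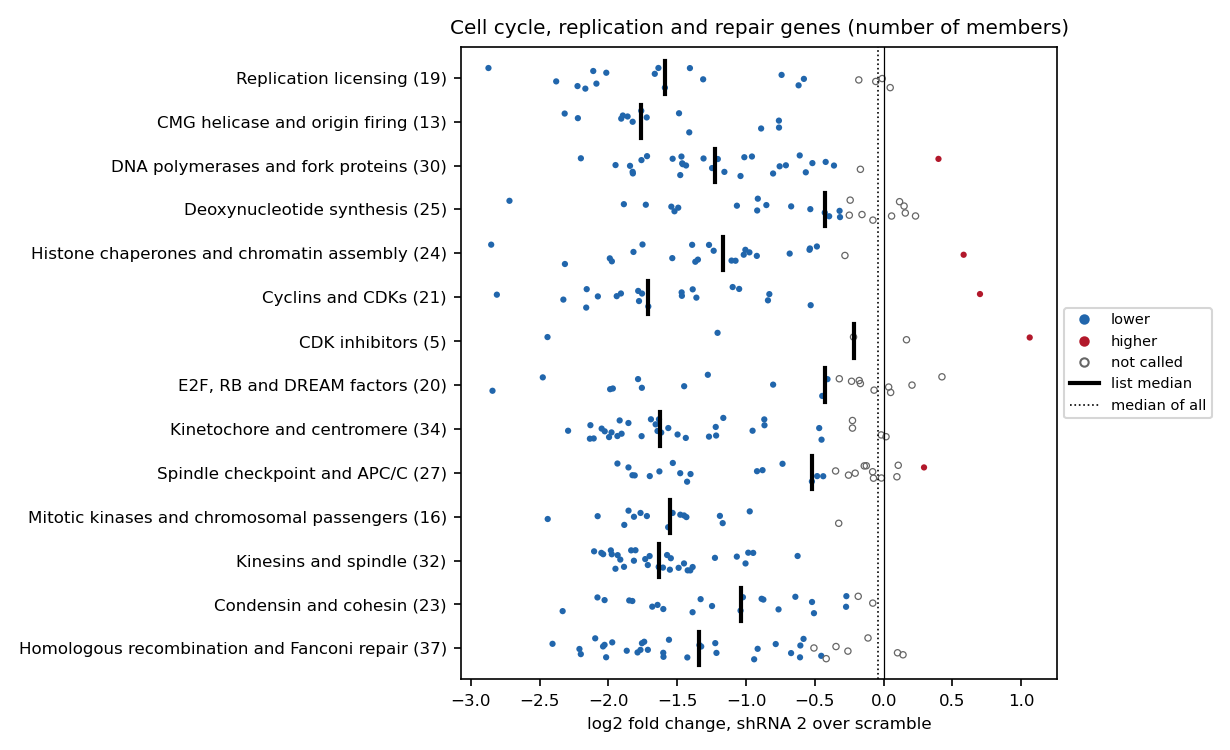
Each point is a gene of 1 of 14 lists, placed by its log2 fold change, shRNA 2 over scramble. Filled blue and red points passed an adjusted p of 0.05, open points did not, thick bars are list medians, and the dotted line is the median of all 12977 genes at -0.04. All 32 genes of the kinesin and spindle list are blue, while the E2F, RB and DREAM list and the spindle checkpoint and APC/C list each hold a low set of filled points and a set of open points near 0.

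Origin licensing, the loading of the MCM helicase onto DNA, had 15 of 19 genes lower and none higher, with a median log2 fold change of -1.59 in the authors' deposited table. CDC6, which loads the helicase, fell from 1008 to 138 normalised counts, a ratio of 0.137 (95% interval 0.106 to 0.176). CDT1, its partner, fell from 1082 to 231 normalised counts, a ratio of 0.214 (95% interval 0.169 to 0.270), and GMNN (geminin), which restrains CDT1, fell from 769 to 247. The helicase subunits fell unequally, from 0.192 (0.166 to 0.223) of scramble for MCM4 to 0.669 (0.589 to 0.760) for MCM7. The origin recognition complex split: ORC1 at 0.235 (0.183 to 0.302) and ORC6 at 0.403 (0.332 to 0.489) fell, whereas ORC2, ORC3, ORC4 and ORC5 did not pass, with ORC2 at 1.03 (0.863 to 1.24). In the step that fires origins, all 13 genes fell (median -1.76), including CDC45 at 0.201 (0.147 to 0.273), GINS2 at 0.214 (0.153 to 0.301) and the kinase CDC7 at 0.275 (0.209 to 0.362).

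Of the 30 genes of DNA polymerases and the replication fork, 28 fell, and the 2 others were RPA2, which did not pass, and POLD4. The sliding clamp PCNA fell from 4239 to 1541 normalised counts, a ratio of 0.363 (95% interval 0.320 to 0.413). CLSPN, which relays fork stalling to CHEK1, had the lowest ratio of the list at 0.218 (0.174 to 0.272). The primase-polymerase subunit POLA2 was at 0.279 (0.227 to 0.342) and the flap nuclease FEN1 at 0.283 (0.241 to 0.332). POLD4, the small accessory subunit of polymerase delta, rose from 1555 to 2049 normalised counts, a ratio of 1.32 (95% interval 1.14 to 1.52), while the catalytic subunit POLD1 went to 0.496 (0.421 to 0.584).

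Of the 25 genes of nucleotide supply, 16 fell and none rose. RRM2, the regulatory subunit of ribonucleotide reductase, fell from 11455 to 1739 normalised counts, a ratio of 0.152 (95% interval 0.111 to 0.208). TK1 and TYMS, which make thymidylate, had ratios of 0.270 (0.180 to 0.405) and 0.349 (0.297 to 0.409). Of the purine synthesis genes PAICS fell to 0.691 (0.620 to 0.770), and GART and IMPDH2 did not pass, at 1.12 (0.991 to 1.26) and 1.08 (0.967 to 1.21). RRM2B, the reductase subunit that p53 induces, did not pass either, at 1.17 (0.907 to 1.52).

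Of 24 genes of histone chaperones, chromatin assembly and related chromatin proteins, 22 fell. CHAF1B, a subunit of the chaperone that deposits histones on new DNA, fell from 1365 to 189 normalised counts, a ratio of 0.139 (95% interval 0.112 to 0.171), and MORC3, which overlaps it on the same strand, was higher, at 0.38 ± 0.12 in the authors' deposited table. UHRF1, which guides DNA methylation to new strands, fell to 0.201 (0.161 to 0.251), and the methyltransferase that it guides, DNMT1, to 0.714 (0.636 to 0.802). DNMT3A, which methylates DNA anew, rose to 1.50 (1.27 to 1.77), while DNMT3B went to 0.494 (0.351 to 0.696). ASF1B was at 0.252 (0.201 to 0.315), whereas its paralog ASF1A did not pass, at 0.823 (0.687 to 0.986). Only 5 genes of replication-dependent histones, whose transcripts mostly lack a poly(A) tail, reached a mean of 50, with HIST2H2BE at 0.239 (0.133 to 0.430) and HIST1H2AC at 1.67 (1.20 to 2.33).

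Cyclins and their kinases fell in 20 of 21 genes (median -1.71). All 3 D cyclins, which start the cycle with CDK4 and CDK6, were lower: CCND1 went to 0.143 (0.103 to 0.198), CCND2 fell from 16762 to 4868 normalised counts, a ratio of 0.290 (95% interval 0.254 to 0.332), and CCND3 went to 0.389 (0.313 to 0.485). CCNE1 and CCNA2, the cyclins of S phase, were at 0.292 (0.228 to 0.372) and 0.261 (0.171 to 0.397), and CCNB1 and CDK1, which drive mitosis, at 0.362 (0.243 to 0.540) and 0.237 (0.197 to 0.285). The phosphatase CDC25A was at 0.199 (0.153 to 0.260), and the opposing kinases WEE1 and PKMYT1 fell as well, to 0.306 (0.254 to 0.368) and 0.224 (0.181 to 0.277). CDK6 was the exception and rose from 3329 to 5409 normalised counts, a ratio of 1.62 (95% interval 1.42 to 1.86).

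The CDK inhibitors did not move together. CDKN1A (p21) was at 1641 and 1409.7 normalised counts, with a ratio of 0.859 (95% interval 0.696 to 1.06), and CDKN1B (p27) was at 5276 and 5919 normalised counts, with a ratio of 1.12 (95% interval 1.01 to 1.25), and neither passed. CDKN1C (p57) rose from 193 to 402 normalised counts, a ratio of 2.09 (95% interval 1.54 to 2.83). CDKN2D, an inhibitor of CDK4 and CDK6, fell to 0.433 (0.288 to 0.652), and CDKN3, a phosphatase of CDKs whose RNA is itself made in cycling cells, to 0.184 (0.129 to 0.261). CDKN2C had a mean of 0.478 and lies outside the rule.

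Of the 20 E2F, RB and DREAM factors, 11 fell and none rose. Of the activators, E2F1 fell from 2461 to 442 normalised counts, a ratio of 0.180 (95% interval 0.150 to 0.216), E2F2 fell from 3248 to 453 normalised counts, a ratio of 0.139 (95% interval 0.117 to 0.167), and E2F3 did not pass. E2F7 and E2F8, repressors that E2F1 induces, went to 0.252 (0.210 to 0.302) and 0.296 (0.222 to 0.394). The mitotic regulators MYBL2 and FOXM1 went to 0.256 (0.181 to 0.361) and 0.290 (0.196 to 0.429). E2F4, E2F5, E2F6, RB1 and RBL2 did not pass either, with E2F4 at 1.03 (0.888 to 1.18), RBL2 at 1.04 (0.910 to 1.18) and RB1 at 0.800 (0.650 to 0.984). The DREAM subunits LIN9 and LIN54 fell to 0.366 (0.272 to 0.492) and 0.412 (0.323 to 0.527), and LIN37 and LIN52 did not pass.

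Mitosis genes fell at every stage that the lists cover. All 32 kinesin and spindle genes were lower (median -1.63), from KIF15 at 0.233 (0.172 to 0.314) to CKAP5 at 0.648 (0.569 to 0.739), and TUBA1B, an alpha-tubulin, fell from 22638 to 6964 normalised counts, a ratio of 0.308 (95% interval 0.229 to 0.414). At the kinetochore 30 of 34 fell: SPC24 of the microtubule-binding NDC80 complex went to 0.204 (0.113 to 0.368) and the centromeric histone CENPA to 0.245 (0.167 to 0.360), while CENPC and CENPT, which sit at centromeres throughout the cycle, did not pass, at 0.855 (0.674 to 1.08) and 0.988 (0.855 to 1.14). Of the mitotic kinases and chromosomal passengers 15 of 16 fell, with PLK1 at 0.345 (0.207 to 0.577), AURKB at 0.294 (0.235 to 0.368) and BIRC5 (survivin) at 0.271 (0.178 to 0.412). MKI67, the antigen read by proliferation stains, fell from 14262 to 2831 normalised counts, a ratio of 0.199 (95% interval 0.138 to 0.286), and TOP2A, the topoisomerase that untangles sister chromatids, fell from 8204 to 2558 normalised counts, a ratio of 0.312 (95% interval 0.230 to 0.423).

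The list of the spindle checkpoint and the anaphase-promoting complex (APC/C) had the smallest median change of the mitosis lists, -0.52, with 16 of 27 lower. The APC/C activator CDC20 went to 0.372 (0.291 to 0.474) and its ubiquitin-conjugating enzymes UBE2C and UBE2S to 0.277 (0.216 to 0.355) and 0.346 (0.283 to 0.423), as did the checkpoint kinase BUB1 at 0.282 (0.239 to 0.333) and PTTG1 (securin) at 0.262 (0.207 to 0.331). The core subunits ANAPC1, ANAPC4, ANAPC5, ANAPC7 and CDC16 did not pass, with ANAPC5 at 0.916 (0.808 to 1.04), and ANAPC2 rose to 1.23 (1.08 to 1.39). The second activator FZR1 did not pass, at 0.946 (0.801 to 1.12). In the condensin and cohesin list, NCAPH of condensin went to 0.237 (0.183 to 0.306), whereas the cohesin ring subunit SMC3 fell less, to 0.829 (0.741 to 0.927), and the cohesin release factor WAPL did not pass, at 0.947 (0.835 to 1.07).

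Homologous recombination and the Fanconi pathway, which repair breaks and crosslinks from the sister chromatid, fell in 30 of 37 genes. BRCA2 went to 0.218 (0.151 to 0.314) and BRCA1 to 0.372 (0.310 to 0.446). The checkpoint kinase CHEK1 fell from 1178 to 289 normalised counts, a ratio of 0.245 (95% interval 0.200 to 0.301). The upstream kinases ATM and ATR did not pass, at 1.07 (0.936 to 1.23) and 1.10 (0.954 to 1.27). Mismatch and excision repair had 8 of 23 lower and 3 higher, beside 23.1% and 13.3% over all genes. MSH6, which helps to recognise mismatches, went to 0.388 (0.341 to 0.443), whereas XPC, which recognises ultraviolet damage, rose from 1693 to 3386 normalised counts, a ratio of 2.00 (95% interval 1.72 to 2.32).

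Promoters were read for 5 short motifs. Of these, E2F sites (TTTCCCGC, TTTGGCGC, TTTCGCGC or TTTGCCGC) and the CHR (TTTGAA) are elements that factors of the kinds above are known to read. Whether those factors acted on these genes was not tested. The RefSeq windows run from 250 bases before to 50 after a gene start (GRCh38.p14), 9326 of the 11398 protein-coding genes matched one, and either strand counted. The windows of 4 genes of the cell cycle lists with an E2F site follow, with the site in capitals. They are examples of the site beside deep falls, at ratios of 0.137, 0.139, 0.180 and 0.199. Not all genes of the lists were open to this choice, so others with ratios as low may hold a match too.
CDC6 (chr17:40287875-40287904 on the plus strand): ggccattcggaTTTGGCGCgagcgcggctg
E2F2 (chr1:23531257-23531286 on the minus strand): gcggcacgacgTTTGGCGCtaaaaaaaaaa
E2F1 (chr20:33686387-33686416 on the minus strand): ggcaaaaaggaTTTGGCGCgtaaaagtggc
CDC25A (chr3:48188443-48188472 on the minus strand): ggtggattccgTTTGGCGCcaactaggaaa
Each is written 5′ to 3′ along the gene, and the same letters TTTGGCGC stand in all 4. In E2F2, E2F1 and CDC25A they begin 42, 20 and 44 bases before the start, and in CDC6 7 bases after it.

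The CHR is shown in the same way, in capitals and along the gene, for CDKN3, MKI67, BRIP1 and CCNF. These are 4 genes of those lists that hold it, chosen with the same limit. In CDKN3 and BRIP1 it reads TTCAAA because the match is on the other strand.
CDKN3 (chr14:54396825-54396854 on the plus strand): tcccgcgcgtctTTCAAAggtcttctagga
MKI67 (chr10:128126435-128126464 on the minus strand): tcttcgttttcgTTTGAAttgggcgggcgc
BRIP1 (chr17:61863749-61863778 on the minus strand): tatcgccggtTTCAAAagtcaaactgagac
CCNF (chr16:2429350-2429379 on the plus strand): gggccgggtgcgTTTGAAaactggggtggg
The match of MKI67 begins 29 bases before the start and that of CCNF 85 bases before it, while those of CDKN3 and BRIP1 lie 170 and 240 bases before. A match is a stretch of letters and not a measured binding site.

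An E2F site stood in 3.31% of all 35116 promoters in the table and in 5.64% of the 9326 matched genes. The share was 11.4% among the 648 that fell by a log2 fold change of 1 or more, 6.81% among the 1761 that fell by less, 4.85% among the 5706 that did not pass and 5.25% among the 1028 that rose by less than 1, and it was 0.546%, a single gene, among the 183 that rose by 1 or more. The CHR gave 15.2% of all promoters and 9.73% of matched genes, against 19.9%, 8.52%, 9.27%, 7.49% and 12% in the same order. The CCAAT box, read by NF-Y, gave 48.9% among the genes that fell by 1 or more and 37.5% of all matched genes. The TATA box (TATAAA) gave 7.10% and 5.15%, and its largest share, 9.84% (18 of 183), was among the genes that rose by 1 or more. Genes of the cell cycle lists that fell by 1 or more (168 promoters) held an E2F site in 21.4% and a CHR in 35.1%, and those outside the lists (480 promoters) in 7.92% and 14.6%. These shares carry no test. An IRF site (GAAA, then 2 bases of any kind, then GAAA), added after the other shares were seen, stood in 3.57% of all promoters, 2.92% of matched genes, 2.16% of those that fell by 1 or more and 5.46% of those that rose by 1 or more.

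**Figure D3:**
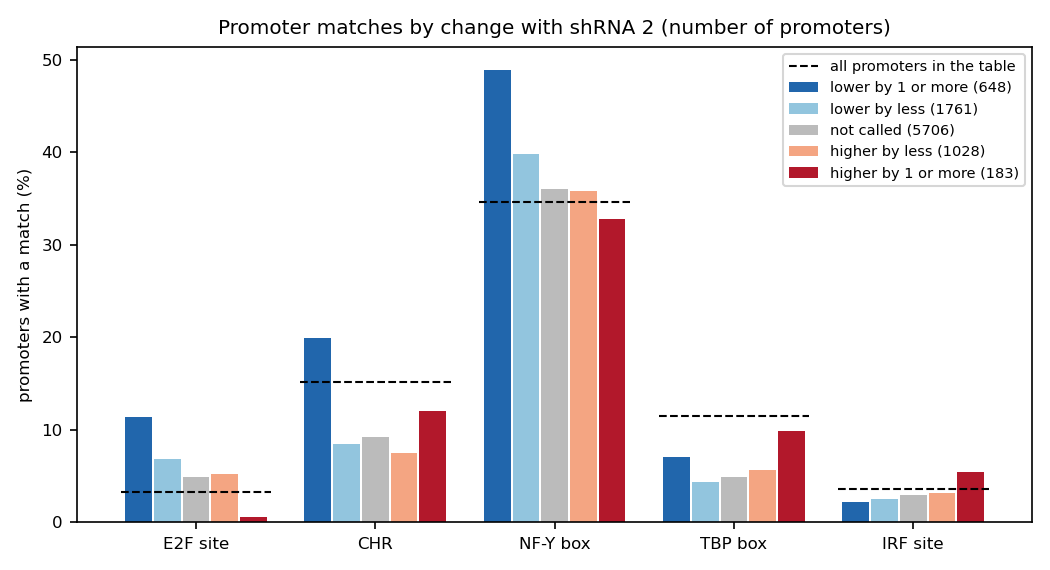
Bars give the percentage of 300-base promoter windows with at least 1 match, for genes grouped by their change with shRNA 2, and the dashed line gives the share over all promoters in the table. The dark blue bar, for the 648 genes lower by a log2 fold change of 1 or more, is the tallest of its 5 for the E2F site (11.4%), the CHR (19.9%) and the NF-Y box (48.9%). The dark red bar, for the 183 genes higher by 1 or more, is the tallest for the TBP box (TATAAA, 9.84%) and the IRF site (5.46%).

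The transcription factors of the plasma cell state split. IRF4 fell from 17637 to 4823 normalised counts, a ratio of 0.273 (95% interval 0.244 to 0.306). XBP1, which expands the secretory apparatus, fell from 21049 to 9461 normalised counts, a ratio of 0.449 (95% interval 0.397 to 0.509), PRDM1 (Blimp-1) fell from 11026 to 6964 normalised counts, a ratio of 0.632 (95% interval 0.557 to 0.717), and the octamer coactivator POU2AF1 fell from 10914 to 6485. MYC was at 14577 and 15464 normalised counts, with a ratio of 1.06 (95% interval 0.946 to 1.19) and did not pass, and neither did IKZF3 at 1.14 (1.02 to 1.27) or MEF2C at 0.948 (0.845 to 1.06). MAF, IKZF1 and POU2F2 rose, IKZF1 (Ikaros) to 1.27 (1.12 to 1.44) and POU2F2 to 1.38 (1.19 to 1.61). Over the list 7 of 17 genes fell and 3 rose, beside 23.1% and 13.3% over all genes.

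Surface proteins of myeloma cells also went both ways, with 15 of 34 lower and 11 higher, beside 23.1% and 13.3% over all genes. TNFRSF17 (BCMA), which receives plasma cell survival signals, fell from 5145 to 1567 normalised counts, a ratio of 0.305 (95% interval 0.266 to 0.349). NCAM1 (CD56) fell from 224 to 33.1 normalised counts, a ratio of 0.148 (95% interval 0.0910 to 0.239), and SLAMF7 fell to 0.644 (0.567 to 0.732). SDC1 (CD138), the standard plasma cell antigen, was at 24500.1 and 21396 normalised counts, with a ratio of 0.873 (95% interval 0.769 to 0.992) and did not pass. In the other direction CD38, an ectoenzyme that therapeutic antibodies bind, rose from 1229 to 2283 normalised counts, a ratio of 1.86 (95% interval 1.51 to 2.29), FCRL5 rose from 90.7 to 205, and the adhesion molecule ICAM1 rose to 1.47 (1.20 to 1.81). The interleukin 6 receptor split between its chains: IL6R rose from 10307 to 17109.7 normalised counts, a ratio of 1.66 (95% interval 1.47 to 1.88) and its signalling partner IL6ST (gp130) fell from 8765 to 4626 normalised counts, a ratio of 0.528 (95% interval 0.466 to 0.598).

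Import into the endoplasmic reticulum and folding there fell in 30 of 43 genes, and none rose. Besides TXNDC5, the largest falls included PDIA6 at 0.463 (0.417 to 0.514), the signal peptidase subunits SPCS2 at 0.525 (0.456 to 0.604) and SEC11C at 0.550 (0.493 to 0.614), and the translocon channel SEC61A1 at 0.588 (0.531 to 0.651). The chaperones HSPA5 (BiP) and HSP90B1 fell less, to 0.682 (0.611 to 0.760) and 0.760 (0.693 to 0.834), and CALR did not pass, at 0.991 (0.901 to 1.09). Vesicle transport between that organelle and the Golgi moved less, with 11 of 33 genes lower and 20 not passing, COPG1 and TMED10 being lowest at 0.476 (0.414 to 0.548) and 0.480 (0.415 to 0.556). Lysosome and autophagy genes had 6 higher and 8 lower of 36, near the shares over all genes (13.3% and 23.1%), with ULK1, which starts autophagy, at 1.53 (1.26 to 1.86).

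Genes of sterol and fatty acid synthesis were lower more often than all genes, of which 23.1% were. Of 24 genes of sterol synthesis and uptake, 17 fell and 1 rose, with a median log2 fold change of -0.56 in the authors' deposited table. EBP, which acts late in cholesterol synthesis, fell from 1836 to 429 normalised counts, a ratio of 0.234 (95% interval 0.195 to 0.281). The early enzyme HMGCS1 fell to 0.525 (0.438 to 0.629). TM7SF2, a sterol reductase, was the one that rose, to 2.02 (1.63 to 2.52). In fatty acid synthesis 8 of 16 genes fell, 1 rose and 7 did not pass, with a median of -0.41. SCD, which makes monounsaturated fatty acids, fell from 6961 to 1683 normalised counts, a ratio of 0.242 (95% interval 0.211 to 0.277), ACSL4 went to 0.30 (0.240 to 0.374) and the regulator SREBF1 to 0.590 (0.509 to 0.683), while ACACA did not pass, at 0.926 (0.782 to 1.10).

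Carbon metabolism and respiration were lower by smaller amounts. In glycolysis 15 of 24 genes fell, led by PFKFB4 at 0.396 (0.230 to 0.680), PDK1 at 0.414 (0.355 to 0.483) and HK2 at 0.468 (0.396 to 0.553), and LDHA fell from 16632 to 7791 normalised counts, a ratio of 0.468 (95% interval 0.422 to 0.521). The glucose transporter SLC2A1 (GLUT1) and the lactate exporter SLC16A3 rose, to 1.92 (1.57 to 2.35) and 1.54 (1.30 to 1.82). The mitochondrial pyruvate carrier fell in both subunits, MPC1 from 904 to 222 normalised counts, a ratio of 0.245 (95% interval 0.194 to 0.311) and MPC2 to 0.485 (0.409 to 0.574). Nuclear genes of the respiratory chain fell in 29 of 43 and none rose, with COX6A1 lowest at 0.505 (0.438 to 0.582). Of 13 genes on the mitochondrial genome 5 fell and 1 rose, with ND4L at 0.768 (0.678 to 0.870) and ND1 at 1.17 (1.07 to 1.28). Mitochondrial ribosomal proteins mostly did not pass (44 of 57).

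Of 32 genes of amino acid transport, serine synthesis, tRNA synthetases and the response to amino acid shortage, 17 fell and 3 rose. PSAT1 and PHGDH, which make serine, went to 0.147 (0.111 to 0.194) and 0.475 (0.337 to 0.670), and the transporters SLC1A4 and SLC7A1 to 0.296 (0.259 to 0.339) and 0.369 (0.305 to 0.447). ATF4, the factor that raises these genes under amino acid shortage, did not pass at the RNA level, at 0.978 (0.866 to 1.10). DDIT4 and SESN2, inhibitors of mTORC1, rose to 2.09 (1.77 to 2.48) and 1.45 (1.16 to 1.82). In polyamine metabolism AMD1 fell to 0.363 (0.314 to 0.419) and ODC1, the first enzyme, to 0.721 (0.639 to 0.814), while the breakdown enzymes SMOX and SAT1 rose to 1.96 (1.39 to 2.77) and 1.49 (1.19 to 1.88).

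Proteasome genes fell in 25 of 40, by small amounts: after PSMD14 at 0.461 (0.399 to 0.532), the others that fell ranged from PSMC3 at 0.646 (0.571 to 0.731) upward. PSMB5, the catalytic subunit that bortezomib binds, was the only one that rose, from 662 to 935 normalised counts, a ratio of 1.41 (95% interval 1.19 to 1.68). Splicing factors fell in 23 of 39, with SF3B2 at 0.591 (0.530 to 0.660) and SRSF3 at 0.648 (0.580 to 0.724), and SNRPA1 of the U2 particle rose to 2.23 (1.88 to 2.64). Of the chaperones 13 of 32 fell, with TCP1 at 0.415 (0.364 to 0.473) and HSP90AA1 at 0.706 (0.632 to 0.789). HSPA1A at 0.438 (0.248 to 0.773) and its near-identical copy HSPA1B, which did not pass at 1.00 (0.849 to 1.18), may share reads.

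Ribosomal protein genes went the opposite way. Of 79 cytosolic ribosomal protein genes, 72 rose, none fell and 7 did not pass, with a median log2 fold change of 0.39 in the authors' deposited table. RPS24 rose most, from 14968 to 28760.1 normalised counts, a ratio of 1.92 (95% interval 1.70 to 2.17), and RPS2 rose from 16318 to 28621 normalised counts, a ratio of 1.75 (95% interval 1.57 to 1.95). Many of these genes have processed pseudogenes that can share reads. The elongation factors EEF2 and EEF1A1 rose to 1.38 (1.26 to 1.51) and 1.27 (1.13 to 1.43), whereas the initiation factor subunit EIF3A fell from 16341 to 8529 normalised counts, a ratio of 0.522 (95% interval 0.469 to 0.581). Genes that build ribosomes in the nucleolus mostly did not pass, 32 of 38, with 5 lower and only PES1 higher at 1.26 (1.12 to 1.42), and NPM1 did not pass at 0.915 (0.831 to 1.01). Noncoding hosts of small nucleolar RNAs rose with the ribosomal proteins in part: GAS5 rose from 4094 to 7625 normalised counts, a ratio of 1.86 (95% interval 1.65 to 2.10), SNHG29 rose to 1.82 (1.56 to 2.11) and ZFAS1 to 1.48 (1.21 to 1.82), whereas SNHG1 and SNHG3 did not pass, at 0.936 (0.802 to 1.09) and 1.01 (0.717 to 1.41). MIR17HG, the host of the miR-17 cluster, fell from 105 to 43.4 normalised counts, a ratio of 0.412 (95% interval 0.246 to 0.691).

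**Figure D4:**
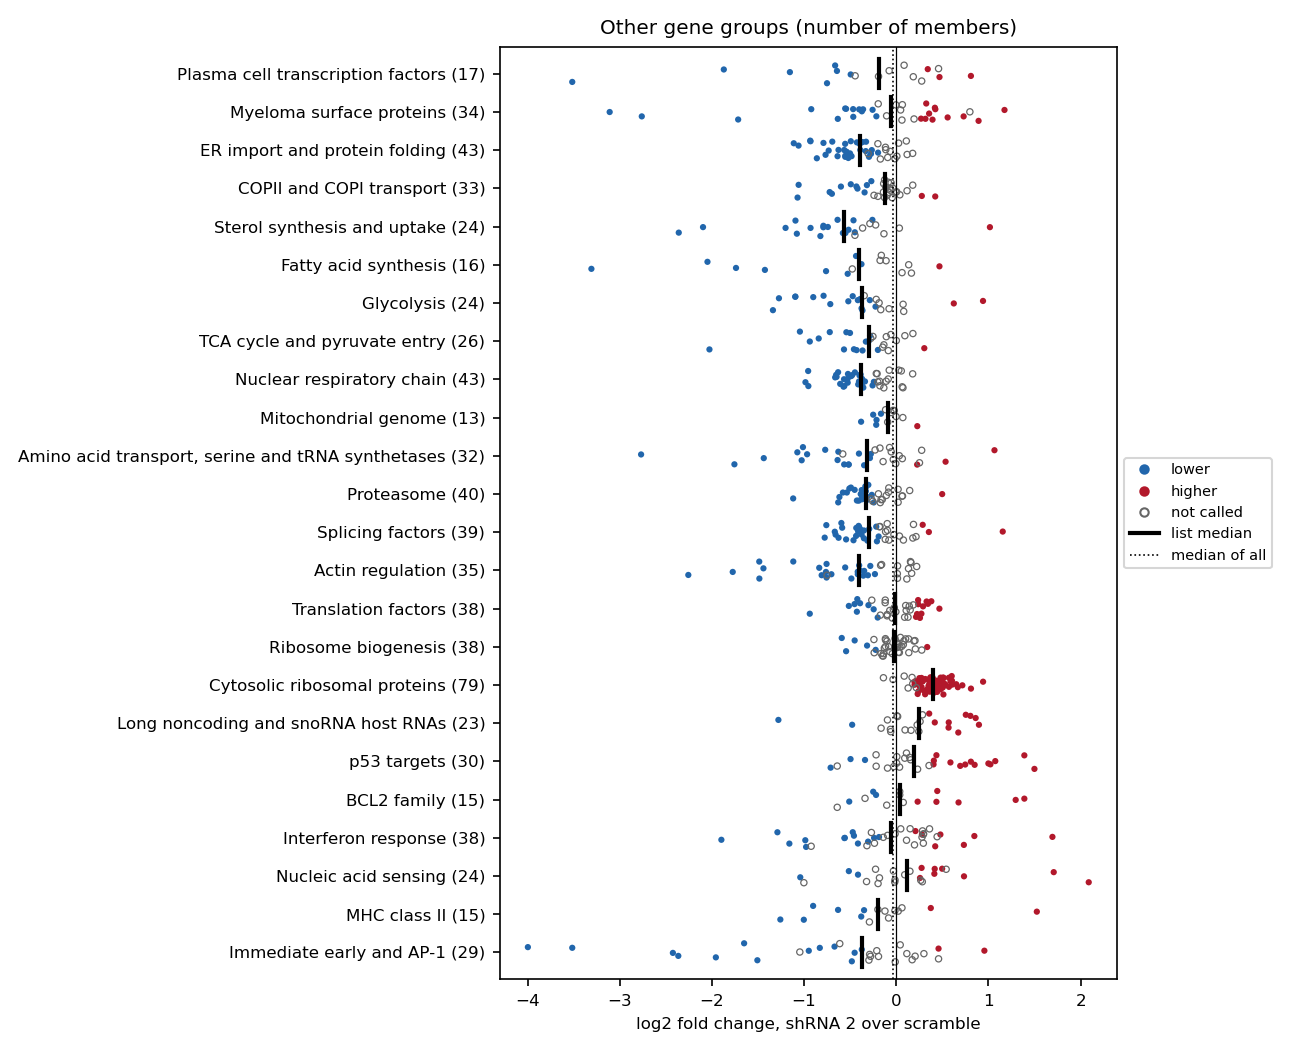
Each point is a gene of 1 of 24 lists outside the cell cycle, placed by its log2 fold change, shRNA 2 over scramble, with filled points past an adjusted p of 0.05, thick bars for list medians and a dotted line for the median of all genes. The cytosolic ribosomal proteins form a tight group to the right of 0 (median 0.39), while the medians of sterol synthesis (-0.56), actin regulation (-0.40) and endoplasmic reticulum folding (-0.40) lie to the left.

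Targets of p53 rose more often than they fell, 13 against 3 of 30, beside 13.3% higher and 23.1% lower over all genes. The lowest log2 fold change of the list was -0.71. With shRNA 1, 8 of the 30 were higher and 5 lower, and the medians were 0.19 with shRNA 2 and 0.27 with shRNA 1. PHLDA3, an inhibitor of AKT, rose from 358 to 1012 normalised counts, a ratio of 2.83 (95% interval 2.15 to 3.72). BBC3 (PUMA), which binds and blocks the survival proteins of the BCL2 family, rose from 631 to 1653 normalised counts, a ratio of 2.62 (95% interval 2.13 to 3.22). TNFRSF10B, a death receptor, rose from 1362 to 2765 normalised counts, a ratio of 2.03 (95% interval 1.75 to 2.35), and FAS rose to 1.75 (1.41 to 2.18). MDM2, the ligase that p53 induces and that degrades it, was at 9206 and 9245 normalised counts, with a ratio of 1.00 (95% interval 0.867 to 1.16) and did not pass, and neither did CDKN1A, given above.

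In the BCL2 family the BH3-only genes BMF and BCL2L11 (BIM) rose with BBC3, BMF from 2855 to 7009 normalised counts, a ratio of 2.46 (95% interval 2.19 to 2.75) and BCL2L11 to 1.60 (1.37 to 1.86). MCL1, the survival protein on which many myeloma cells rely, rose slightly to 1.17 (1.07 to 1.29), and BCL2 did not pass at 0.931 (0.823 to 1.05). PMAIP1 (NOXA) did not pass at 0.642 (0.358 to 1.15), and BAD fell to 0.702 (0.588 to 0.839). Of the death receptor and caspase genes 7 rose and 4 fell of 21: TRADD rose to 1.74 (1.51 to 2.00), and CYCS (cytochrome c) fell to 0.546 (0.476 to 0.625). APAF1 did not pass, at 0.602 (0.401 to 0.906).

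Genes of nucleic acid sensing, a list that was not limited to the routes to IRF3, did not move in one direction. STING1 and TLR3 of that list lay below the mean required for entry and are not described. Of 24 sensing genes, 8 rose and 3 fell. CGAS, the DNA sensor, fell from 626 to 304 normalised counts, a ratio of 0.486 (95% interval 0.384 to 0.615), and ZBP1 fell to 0.700 (0.622 to 0.789). TLR9, which reads unmethylated DNA in endosomes, rose from 43.0 to 141 normalised counts, a ratio of 3.27 (95% interval 1.66 to 6.42), and TBKBP1, an adaptor of TBK1, rose from 42.3 to 179.7 normalised counts, a ratio of 4.25 (95% interval 2.49 to 7.27). TBK1 and MAVS did not pass, at 0.979 (0.831 to 1.15) and 0.872 (0.777 to 0.979), and IKBKE, a kinase close to TBK1, rose to 1.41 (1.23 to 1.63). IRF5 and the adaptor MYD88 rose to 1.33 (1.19 to 1.49) and 1.34 (1.09 to 1.63).

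Interferon response genes were split as well, 13 lower and 7 higher of 38, beside 23.1% lower and 13.3% higher over all genes. GBP2, ISG20 and OAS3 fell, GBP2 from 143 to 38.5 normalised counts, a ratio of 0.268 (95% interval 0.170 to 0.423), ISG20 to 0.409 (0.341 to 0.491) and OAS3 to 0.448 (0.343 to 0.584). TRIM22 rose from 54.3 to 176 normalised counts, a ratio of 3.24 (95% interval 1.89 to 5.55), and PARP9 and XAF1 rose to 1.80 (1.20 to 2.70) and 1.66 (1.17 to 2.37). The genes IFIT1, IFIT3 and ISG15, which IRF3 can induce directly, did not pass, at 1.28 (0.735 to 2.24), 0.937 (0.641 to 1.37) and 1.11 (0.693 to 1.78), and their scramble levels were between 73.9 and 137. IFIT2, RSAD2 and OASL of the interferon list lay below the mean required for entry and are not described. Of the NF-kappaB genes 17 of 24 were not called, near the share over all genes (8252 of 12977). The inhibitor NFKBIA and BCL3 rose to 1.46 (1.20 to 1.78) and 1.75 (1.31 to 2.33), and RELA and NFKB1 did not pass. The 2 that fell were the chemokines CCL3 and CCL4, the latter at 0.248 (0.153 to 0.403).

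In antigen presentation 6 of 15 class II genes fell and 2 rose, and 3 of 17 class I and peptide loading genes fell and 3 rose. The class I counts lie near the shares over all genes, 23.1% lower and 13.3% higher. HLA-DOB, HLA-DPB1 and HLA-DPA1 fell to 0.418 (0.334 to 0.524), 0.499 (0.408 to 0.611) and 0.535 (0.454 to 0.631), and CIITA, the activator of the group, to 0.785 (0.669 to 0.921). HLA-DRA fell to 0.769 (0.678 to 0.871), and CD74, the invariant chain, did not pass at 1.04 (0.915 to 1.19). HLA-DQA1 rose from 36.4 to 105 normalised counts, a ratio of 2.88 (95% interval 1.75 to 4.74). In class I, B2M did not pass at 0.997 (0.900 to 1.10), and HLA-B and HLA-E fell to 0.837 (0.753 to 0.931) and 0.769 (0.692 to 0.854). Reads of HLA genes depend on how the cell's own alleles match the reference, so values of single HLA genes are uncertain.

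Of 29 immediate early genes and feedback inhibitors of ERK, 13 fell, 2 rose and 14 did not pass, with a median log2 fold change of -0.37 in the authors' deposited table. DUSP6 and SPRED2, which damp ERK signalling, fell from 1044 to 203 normalised counts, a ratio of 0.194 (95% interval 0.160 to 0.236) and from 855 to 159 normalised counts, a ratio of 0.186 (95% interval 0.142 to 0.244). FOS fell from 1056 to 372 normalised counts, a ratio of 0.352 (95% interval 0.286 to 0.433), FOSB went to 0.258 (0.196 to 0.338) and JUN to 0.518 (0.444 to 0.605). JUND and JUNB did not pass, at 1.08 (0.942 to 1.24) and 0.814 (0.655 to 1.01), and IER5 rose from 3929 to 7623 normalised counts, a ratio of 1.94 (95% interval 1.68 to 2.23).

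Adhesion and cytoskeleton genes fell more often than they rose. In the actin regulation list 23 of 35 genes fell and none rose. VIM (vimentin), an intermediate filament protein, fell from 5225 to 1094 normalised counts, a ratio of 0.209 (95% interval 0.176 to 0.249), ANXA2 fell from 4063 to 1452 normalised counts, a ratio of 0.357 (95% interval 0.312 to 0.409), and its partner S100A10 fell from 233 to 68.1. TIAM1, which activates RAC, went to 0.368 (0.296 to 0.459), and RAC2 and PFN1 did not pass, at 1.01 (0.915 to 1.11) and 1.08 (0.972 to 1.21). Of 20 integrin and adhesion genes 12 fell: PECAM1 went to 0.264 (0.187 to 0.373), ITGA6 to 0.416 (0.316 to 0.549), and ITGB7, which MAF is known to induce in myeloma, fell from 381280.0 to 276011 normalised counts, a ratio of 0.724 (95% interval 0.648 to 0.809). ITGAM, an integrin of myeloid cells, rose from 21.7 to 88.4 normalised counts, a ratio of 4.08 (95% interval 2.25 to 7.41), and it accounts for most of the summed myeloid marker level given above.

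Cytokine receptors and kinases rose in 8 and fell in 6 of 24 genes, beside 13.3% and 23.1% over all genes. IL2RG and IL21R, which pair as a receptor for interleukin 21, rose to 1.90 (1.69 to 2.13) and 1.54 (1.30 to 1.82), JAK1 rose to 1.51 (1.34 to 1.71), and JAK2 fell to 0.621 (0.483 to 0.797). Both chains of the type I interferon receptor fell, IFNAR1 to 0.734 (0.658 to 0.819) and IFNAR2 to 0.682 (0.606 to 0.769), and both chains of the interferon gamma receptor rose, IFNGR1 to 1.37 (1.09 to 1.72) and IFNGR2 to 1.38 (1.20 to 1.59). PIM2, a survival kinase of plasma cells, did not pass at 0.968 (0.870 to 1.08).

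Genes linked with quiescence and FOXO factors had 10 higher and 8 lower of 26, beside 13.3% and 23.1% over all genes. PIK3IP1, which inhibits PI3 kinase, rose from 769.7 to 1856 normalised counts, a ratio of 2.41 (95% interval 1.99 to 2.92), and BTG1 and YPEL3 rose to 1.42 (1.26 to 1.61) and 1.51 (1.35 to 1.69). KLF2, given above, had the lowest log2 fold change of the list (-3.51), and SESN3 and FOXO3 fell to 0.513 (0.424 to 0.619) and 0.792 (0.717 to 0.875). Of 46 chromatin modifiers 7 rose and 10 fell, which is near the 13.3% and 23.1% over all genes. EZH2, the methyltransferase of Polycomb complex PRC2, and NSD2 fell to 0.381 (0.322 to 0.451) and 0.407 (0.355 to 0.467), and the demethylase KDM5B rose from 393 to 1157 normalised counts, a ratio of 2.94 (95% interval 2.33 to 3.71). In the RNA interference machinery that processes hairpins, DGCR8 and DICER1 fell to 0.536 (0.457 to 0.629) and 0.642 (0.556 to 0.741), while DROSHA, XPO5 and AGO2 did not pass, at 0.880 (0.751 to 1.03), 1.04 (0.887 to 1.22) and 0.875 (0.505 to 1.51).

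The first hairpin's table shares its scramble libraries with this one, so the values of both are set side by side and no overlap is given. In that table, 1378 of the same genes were higher (10.6%) and 2131 lower (16.4%). The difference between the hairpins passed, by a z test adjusted over 12977 genes, for 1489 genes where shRNA 2 was above shRNA 1 (11.5%) and 2010 where it was below (15.5%). With a standard error that allows for the shared scramble libraries, solved from reconstructed dispersions, it passed for 2606 above and 3070 below. In the cell cycle, replication and repair lists it passed below for 236 of 326 genes and above for 5, and with the second error for 259 and 11. The median log2 fold change of those 326 genes was -1.39 with shRNA 2 and -0.20 with shRNA 1. CDC6, for one, had -2.87 ± 0.19 and -0.23 ± 0.17 in the authors' deposited tables (adjusted p of the difference 2.59e-23), and MKI67 -2.33 ± 0.27 and -0.56 ± 0.27 (3.9e-05).

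Other groups with many differences were those of secretion, the proteasome and signalling. In the proteasome list shRNA 2 was below shRNA 1 for 25 of 40 genes, with medians of -0.32 and 0.17, and in the actin regulation list for 23 of 35, with medians of -0.40 and 0.10. The endoplasmic reticulum list gave 23 of 43 (-0.40 and 0.08), and the class II list 11 of 15 (-0.20 and 0.75). Ribosomal proteins were higher with both, the medians being 0.39 and 0.22, and shRNA 2 was above shRNA 1 for 19 of 79, or 38 with the second error. IRF4 was at 7613 with shRNA 1 and 4823 with shRNA 2 (difference -0.66 ± 0.12, adjusted p = 4.87e-07). For XBP1 the difference was -0.32 ± 0.13, and whether it passed depended on the error used (adjusted p = 0.0515 by the z test and 0.00194 with the second error). For PRDM1 the difference was -0.13 ± 0.13 and passed with neither (adjusted p = 0.541 and 0.284). KLF2, at 2065 with shRNA 1 against 1009.9 in scramble and 88.3 with shRNA 2, and LDHA, at 31788 against 16632 and 7791, went opposite ways with the 2 hairpins. For CXCL10 the difference was 2.48 ± 0.59 (adjusted p = 0.000268), and for MMP9 it was 2.91 ± 1.29, which passed with the second error alone (adjusted p = 0.0789 and 0.00392).

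**Figure D5:**
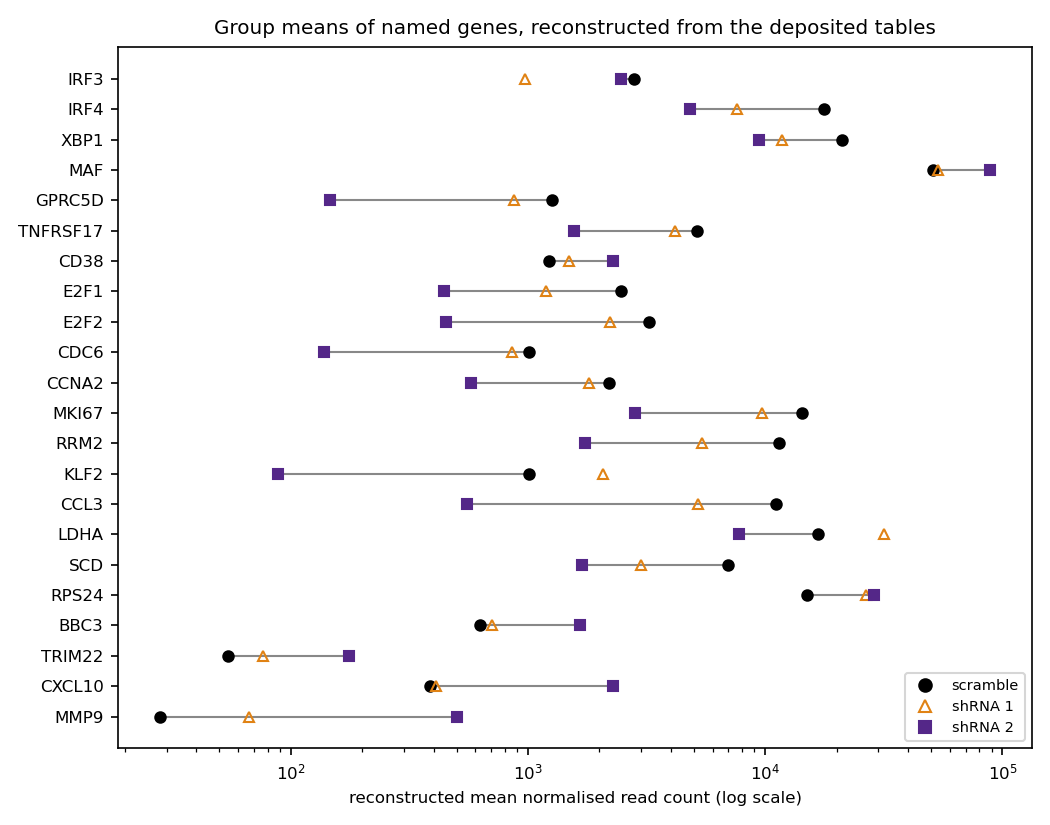
For 22 named genes, symbols give the reconstructed mean normalised count in scramble (filled circle), shRNA 1 (open triangle) and shRNA 2 (filled square) on a log axis, with a line from scramble to shRNA 2. They are solved from the deposited tables, so no library is shown and there are no error bars. The IRF3 square lies beside its circle (2476 and 2809) with the triangle to the left at 974, and for KLF2 and LDHA the triangle and the square lie on opposite sides of the circle.

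The share of genes called differed with their level and class. Among genes with a mean of 50 to 200, 275 were higher and 304 lower of 2812, and among those at 5000 or more, 210 and 275 of 780. The median standard error was 0.36 in the first bin and 0.08 in the last. Protein-coding genes were more often lower (25.5%) than higher (13.1%), with a median log2 fold change of -0.07 over 11398 genes. Antisense genes (455) were lower in 4.40% and higher in 14.1%, and long intergenic noncoding genes (352) in 5.40% and 14.8%, with medians of 0.19 and 0.20. By chromosome, the medians ran from -0.16 on chromosome 13 to 0.08 on chromosome 19, where 18.6% were higher and 14.3% lower, and chromosome 18 had the largest share of lower genes among the autosomes and X, 30.5%.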

How the data were processed

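Poly(A) RNA from MM.1S cells was sequenced in 6 libraries, 2 each of scramble control, IRF3 shRNA 1 and IRF3 shRNA 2, prepared with NEBNext Ultra II kits per the labels. The authors deposited 2 tables of DESeq2 results, each a hairpin against scramble, and the submitters' processing notes name Salmon 0.12.0, DESeq2 1.24.0 and GRCh38. The sources used here give neither settings nor strand use. Per the file headers the tables hold a mean normalised count (signal), log2 fold changes with standard errors on the log2 scale, a Wald score and p-values, raw and adjusted, all as the authors computed and deposited them. No value of a single library is given, so depth per library is unknown and no count test, interval on a count or left-out library was possible. The overall mean was identical in both tables for all 33095 genes.

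Group levels were solved from that mean and both log2 fold changes. Their sign, hairpin over scramble, was checked through gene dispersions solved from each table: the median absolute log ratio was 0.00408 with the signs as coded and between 0.0321 and 0.0939 with others (643 genes). Calls use the authors' adjusted p below 0.05, adjusted by them over their whole table. Differences between hairpins use a two-sided z test with summed squared errors and Benjamini-Hochberg adjustment over 12977 genes, which is careful because the scramble libraries are shared. Scripts (Python 3.11.15, pandas 2.3.3, scipy 1.17.1) were tested on simulated data.

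The comparison, the members and the 52 gene lists (1475 genes, of which 1470 matched and 1384 had a mean of 50 or more) were chosen with earlier results of these data known, so a list's count is a description. Genes were named by rule: IRF3 and BCL2L12, the 16 highest and 16 lowest called genes, the 8 with the largest means in each direction past a log2 fold change of 0.5, up to 6 called members of each list, up to 2 against its median and up to 2 not called, and a few fixed regulators. Further list members were named for their function after their values were seen. Positions are GENCODE 29 on GRCh38, and promoters are RefSeq windows on GRCh38.p14.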

Additional observations from a re-analysis of the deposited data

Results flagged for a closer look

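For 30 named genes the log2 fold changes with the 2 hairpins differed by the z test and either pointed opposite ways past the threshold in both tables or, for IRF3, concerned the targeted gene. Many named genes were chosen for their change with shRNA 2, so this count describes that choice and is not a share of all genes. Over all 12977 genes, the difference passed for 1489 above (11.5%) and 2010 below (15.5%), whatever the directions against scramble. Both tables share their scramble libraries. The values below are the log2 fold change with shRNA 2 minus that with shRNA 1.

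IRF3 differed by 1.35. Among genes lower with shRNA 2 and higher with shRNA 1, the difference was -4.55 for KLF2 and -4.18 for RND3. It was -2.61 for HMMR, a spindle protein and hyaluronan receptor, -2.34 for ANXA2 and -2.03 for LDHA. The actin ACTG1 gave -1.02 and the zinc-finger gene ZBTB38 -0.97. In class II antigen presentation the values were -2.15 for HLA-DPA1, -1.76 for HLA-DPB1, -1.42 for HLA-DMB and -1.21 for HLA-DRA, and HLA-B of class I gave -0.48. The linker histone HIST1H1C gave -1.33, TNRC6C of the RNA interference machinery -1.16, BAD -0.94, ODC1 -0.88 and the nuclear transport GTPase RAN -0.55.

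Among genes higher with shRNA 2 and lower with shRNA 1, the difference was 1.98 for KLHL24, 1.97 for TM7SF2 and 1.92 for PIK3IP1. It was 1.38 for XPC, 1.29 for SESN2 and 1.21 for SAT1. The transcription factor KLF13 gave 1.16, BCL2L11 1.12 and IL6R 1.02. Smaller values were found for PLEC (0.79), the mitophagy receptor BNIP3L (0.78) and PES1 (0.64).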

How the results depend on the processing

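No paired analysis was possible because the deposited tables hold no value of a single library, and for the same reason leaving out each library was not run. The 1730 higher and 2995 lower genes became 311 and 842 when a log2 fold change of 1 was required as well, and 401 and 1156 when the z test was made against a log2 fold change of 0.3. The other alternatives stayed within 1.5 times: 1254 and 2376 at an adjusted p of 0.01, 1511 and 2732 without the authors' filter on low genes, 2026 and 2707 with fold changes recentred on the median gene, 1826 and 3069 from a mean of 20, and 1455 and 2691 from a mean of 200. Recentring moved the lower share of calls from 63.4% to 57.2%. With a standard error that allows for the shared scramble libraries, the difference between hairpins passed for 2606 genes above and 3070 below, against 1489 and 2010. Over the named genes and these alternatives, those on the mean aside, 1963 values stayed the same, 310 lost their call and 7 gained one. Of the losses, 172 came with the required log2 fold change of 1 and 105 with the test against 0.3. Directions are not compared, because all of these alternatives except the recentring use the same fold changes. In the 250 bases before the start alone, 8.49% of the genes that fell by 1 or more held an E2F site and 14% a CHR, against 11.4% and 19.9% in the whole window. The shares in those 250 bases were 4.72% and 8.33% over all matched genes and 2.79% and 13.3% over all promoters in the table. With 2 libraries a group and no library values, 1 library that stands apart could not be seen.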
